A study of Mus musculus with 3 samples.

Results

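The galectins are a family of lectins that bind beta-galactoside sugars on glycoproteins and glycolipids. The genes described here are Lgals1, Lgals3, Lgals8 and Lgals9, which encode galectin-1, galectin-3, galectin-8 and galectin-9, and Lgals3bp, which encodes a secreted glycoprotein that binds galectin-3. They were chosen by name from the gene list of the series and not by a rule on their values, but with earlier results of these data known. They make up 5 of the 31053 genes counted. All 5 were detected in every library.

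Galectins are made in the cytosol and leave the cell without a signal peptide, after which they cross-link surface glycans and bridge cells and matrix. Galectin-3 is abundant in macrophages, where it takes part in phagocytosis and in fibrotic repair. Galectin-1 dampens T cell responses, galectin-8 marks damaged endosomes and lysosomes for autophagy, and galectin-9 is a ligand of TIM-3. Galectin-9 and the galectin-3 binding protein are known to be induced by interferons.

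Monocytes and macrophages were isolated from wounded skin of C57BL6/J males 3, 6 or 10 days after injury, and their transcripts were counted by droplet single-cell RNA-seq as unique molecular identifiers (UMIs, 1 per captured mRNA molecule). All mice carried the same genotype, no treatment other than the wound is given, and the age of the mice and the sort by which the cells were isolated are not given in the sources used here. Each day was 1 library pooled from 2 mice, which leaves no measure of how much animals differ, so no test was run and each comparison describes these libraries. Levels are UMIs per 1000000 UMIs summed over cells (CPM), and the 95% intervals given cover counting error only.

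After cells with under 200 genes or with 10% or more mitochondrial UMIs were removed, 900, 598 and 1362 cells remained on days 3, 6 and 10, with medians of 10629, 11778.5 and 8285 UMIs. The day 10 and day 6 libraries shared 2 cell barcodes and the other pairs of libraries none. Cells were gated on at least 3 UMIs, and at least 3 per 10000, of C1qa (a complement gene of macrophages), Cd209a (a lectin gene of monocyte-derived dendritic cells) or Ly6c2 (a gene of inflammatory monocytes). Cd209a-gated cells were set apart first, and cells that passed for both C1qa and Ly6c2 are called double-gated. The C1qa gate held 75, 244 and 599 cells on days 3, 6 and 10, the Cd209a gate 111, 92 and 156, and the Ly6c2 gate 291, 17 and 65. The double gate held 44, 8 and 1 cells, and 379, 237 and 541 cells passed no gate. Sums of under 20 cells were not used, which removed the Ly6c2 gate of day 6 and the double gate of days 6 and 10 and left 12 day-by-gate sums.

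Among the gates used on a day, the C1qa, Cd209a and Ly6c2 gates held the highest sums of macrophage, dendritic cell and monocyte markers, respectively. The gate genes themselves are members of these fixed markers. The summed macrophage markers reached 16495 CPM in day 3, 24886 in day 6 and 26772 in day 10 C1qa-gated cells, against 4153 CPM in day 3 and 4245 CPM in day 10 Ly6c2-gated cells. All 9 monocyte markers were detected in the Ly6c2 gate, at a sum of 11393 CPM on day 3 and 9808 CPM on day 10. They summed to 4870, 1370 and 1422 CPM in C1qa-gated cells on days 3, 6 and 10. In the Cd209a gate the dendritic cell markers summed to 2043, 1588 and 1876 CPM on days 3, 6 and 10. Most of this was Cd209a itself. Monocyte markers summed to 3168, 1881 and 1763 CPM in this gate, and macrophage markers to 794, 986 and 1029 CPM. Xcr1 and Clec9a, markers of another dendritic cell type, were at 0 on day 6. All 10 dendritic cell markers were detected in this gate on days 3 and 10. Hemoglobin transcripts reached 4580 CPM in the day 6 C1qa gate, against under 2 CPM in the C1qa gate on the other days. Their part in the day 6 levels of this gate was not tested. Over all kept cells, an alternative setting left out cells with erythroid, fibroblast, keratinocyte or endothelial markers (33 cells on day 6). Cells that passed no gate held monocyte markers at 6698, 1587 and 1914 CPM and macrophage markers at 3842, 4051 and 5193 CPM on days 3, 6 and 10. Over all kept cells, fibroblast markers summed to at most 23.9 CPM and keratinocyte markers to at most 3.7 CPM. Neutrophil markers summed to 166, 258 and 145 CPM over all kept cells on days 3, 6 and 10. In ungated cells they summed to 194, 506 and 233 CPM on these days. Langerhans cell markers reached 87.6 CPM in ungated cells of day 6.

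Lgals1 lies on chromosome 15 (78926725 to 78930465, plus strand), Lgals3 on chromosome 14 (47367751 to 47386160, plus strand) and Lgals8 on chromosome 13 (12439415 to 12464944, minus strand) of mm10. Lgals9 (78962974 to 78984946) and Lgals3bp (118392751 to 118402092) are both on the minus strand of chromosome 11. Lgals8 overlaps Heatr1 on the opposite strand, and since the strand setting of the counting is not given, reads of this pair of genes cannot be told apart with certainty. The annotation also holds the uncounted pseudogenes Lgals1-ps1 and Lgals1-ps2, whose reads could be lost or shared with Lgals1.

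The promoters of Lgals9 and Lgals3bp are shown because these genes had the largest differences between day 10 and day 3. Their levels also correlated with those of interferon-response genes over the day-by-gate sums, with exceptions described further on. The windows run from 250 bases before to 50 bases after the annotated start, from RefSeq on GRCm38.p6, the assembly that mm10 names, and were found for 4 of the 5 genes (all but Lgals1). Capitals mark the matches to the core of the interferon-stimulated response element (ISRE core, GAAA and GAAA spaced by 2 bases of any kind) and to the shorter AANNGAAA, the core bound by interferon regulatory factors. Both were searched on both strands, and every ISRE core match contains an AANNGAAA match. The Lgals9 window is chr11:78984875-78985174 and the Lgals3bp window is chr11:118401910-118402209, each read on the minus strand.
Lgals9: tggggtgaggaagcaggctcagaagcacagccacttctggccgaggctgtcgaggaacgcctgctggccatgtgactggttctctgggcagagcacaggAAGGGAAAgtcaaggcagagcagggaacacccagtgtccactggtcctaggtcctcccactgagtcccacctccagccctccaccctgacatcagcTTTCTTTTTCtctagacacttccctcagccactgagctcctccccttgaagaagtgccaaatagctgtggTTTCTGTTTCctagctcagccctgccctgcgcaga
Lgals3bp: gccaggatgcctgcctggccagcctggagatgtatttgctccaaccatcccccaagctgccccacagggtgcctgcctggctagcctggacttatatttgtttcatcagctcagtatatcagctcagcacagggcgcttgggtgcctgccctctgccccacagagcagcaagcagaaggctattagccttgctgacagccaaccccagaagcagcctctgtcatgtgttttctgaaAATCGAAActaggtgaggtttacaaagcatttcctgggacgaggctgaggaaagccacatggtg

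The Lgals9 window held 2 ISRE core matches, TTTCTTTTTC at bases 196 to 205 and TTTCTGTTTC at bases 266 to 275 counted from its 5′ end, both on the opposite strand. It held 3 AANNGAAA matches, of which AAGGGAAA at bases 100 to 107 lies outside the longer ones. The Lgals3bp window held 1 AANNGAAA match, AATCGAAA at bases 237 to 244, and no ISRE core match. Neither motif was found in the Lgals3 (chr14:47373610-47373909) and Lgals8 (chr13:12461689-12461988) windows, and TTCNNNGAA, the core of the gamma-activated site, was in none of the 4. The Lgals3 and Lgals8 windows lie inside the gene bounds given above, and any other start of these genes was not searched. Of 32851 windows of this length, 3.44% held the ISRE core, 23.9% held AANNGAAA and 8.3% held TTCNNNGAA. Of the 15 genes with a window in the list of interferon-response genes used below, 8 held the ISRE core and 10 held AANNGAAA. A match describes these letters only.

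Across all kept cells, 2 galectin genes were abundant and kept similar levels between days, and the 3 scarcer genes were lower at day 10 than at day 3. Lgals3 had 2586, 2948 and 3088 CPM on days 3, 6 and 10 (25237, 21413 and 37406 UMIs). Lgals1 had 1177, 994 and 1048 CPM (11486, 7222 and 12694 UMIs). Galectin-1 is a galectin with a single type of sugar-binding domain that pairs with itself, while galectin-3 joins 1 such domain to a flexible tail through which it clusters.

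Lgals8 had 75.7, 40.9 and 45.5 CPM on days 3, 6 and 10, so that its step was between day 3 and day 6. Lgals9 had 132, 86.7 and 55.0 CPM and was lower at each later day. Lgals3bp had 133, 120 and 52.4 CPM, with most of its difference between day 6 and day 10. Galectin-8 and galectin-9 each carry a pair of different sugar-binding domains on 1 chain.

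At 1.5-fold or more, 0 of the 5 genes were higher and 3 were lower at day 10 than at day 3 over all kept cells. Of all 11289 genes with at least 20 UMIs, 24.6% were higher and 8.94% lower by this measure, and the median log2 ratio of all genes was 0.17. Lgals3bp was 2.53-fold lower at day 10 (2.30 to 2.79), Lgals9 2.40-fold lower (2.19 to 2.64) and Lgals8 1.67-fold lower (1.49 to 1.86). Only 2.34% of the genes had a ratio as low as that of Lgals3bp, 2.55% one as low as Lgals9 and 6.57% one as low as Lgals8. The log2 ratio was 0.26 for Lgals3 and -0.17 for Lgals1, on either side of the median of all genes. Under median-of-ratios scaling these were 0.08 and -0.34.

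Between day 6 and day 3, 2 of the 5 genes were lower, Lgals8 by 1.85-fold (1.62 to 2.13) and Lgals9 by 1.52-fold (1.38 to 1.68), against 7.79% of all genes, whose median log2 ratio was 0.24. Between day 10 and day 6, 2 were lower, Lgals3bp by 2.29-fold (2.06 to 2.54) and Lgals9 by 1.58-fold (1.41 to 1.76), against 10.3% of all genes. The comparisons share libraries and are given side by side. Lgals9 lay close to the 1.5-fold limit in both steps and was under it in 3 of 10 alternative settings for day 6 over day 3 and in 4 of 10 for day 10 over day 6. Lgals8 did not continue downwards after day 6, with a ratio of 1.11 (0.964 to 1.29) at day 10 over day 6.

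**Figure D1:**
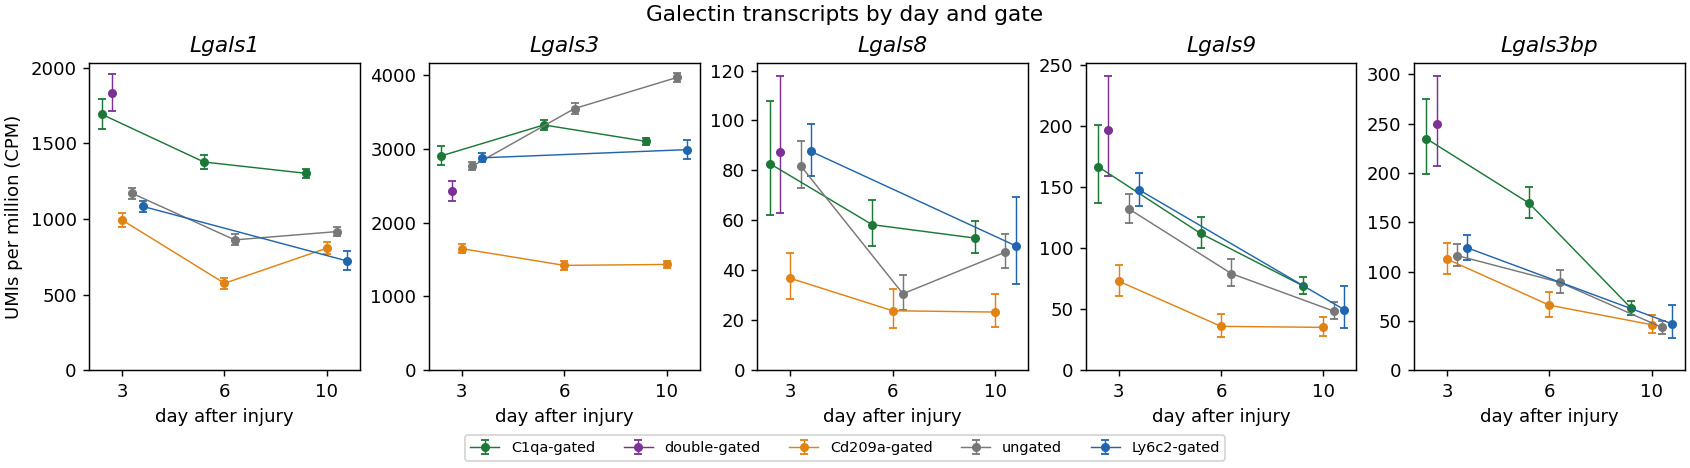
Levels of the 5 genes in CPM (y axis, linear, from 0) by day after injury (x axis), 1 panel a gene and 1 colour a gate. Points are sums over the cells of a gate and day, bars are exact Poisson 95% intervals for counting error only, and lines join days of 1 gate. Cd209a-gated cells lie lowest in the Lgals3 panel at every day, and Lgals9 and Lgals3bp are lower at day 10 than at day 3 in each gate drawn at both days.

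The differences between days were then followed inside the gates, where the mix of gates no longer moves the sum, although a gate, and the ungated cells above all, can still hold a mix. The change of mix was large, since Ly6c2-gated cells were 4.77% of kept cells on day 10 against 32.3% on day 3, while C1qa-gated cells were 44.0% on day 10 against 8.33% on day 3.

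Lgals9 was lower at day 10 in all 4 gates with both days. At day 10 it had 69.2 CPM in C1qa-gated, 35.2 in Cd209a-gated, 48.5 in ungated and 49.9 in Ly6c2-gated cells, against 167, 73.1, 132 and 148 CPM at day 3 in these gates. These are 2.41-fold (1.93 to 2.99), 2.08-fold (1.56 to 2.79), 2.73-fold (2.31 to 3.23) and 2.97-fold (2.10 to 4.31) lower levels. No day 10 interval met the day 3 interval of its own gate.

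Lgals3bp was also lower in all 4 gates, and most so in C1qa-gated cells, with 62.8 CPM at day 10 against 235 CPM at day 3 (3.74-fold lower, 3.07 to 4.54). At day 10 it had 46.2 CPM in Cd209a-gated, 43.4 in ungated and 47.0 in Ly6c2-gated cells, against 113, 116 and 124 CPM at day 3, or 2.44-fold, 2.68-fold and 2.64-fold lower. At day 10 its 4 levels lay within 43.4 to 62.8 CPM, while at day 3 those of the same gates spread over 113 to 235 CPM. Lgals8 was 1.56-fold lower in C1qa-gated cells at day 10 (1.15 to 2.09), 1.58-fold in Cd209a-gated cells (1.08 to 2.32), 1.73-fold in ungated cells (1.44 to 2.09) and 1.76-fold in Ly6c2-gated cells (1.23 to 2.58). The Lgals8 differences in the C1qa and Cd209a gates lie just beyond 1.5-fold, and that in the C1qa gate was no longer so in 5 of 12 alternative settings.

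Lgals1 was lower at day 10 in each gate, by less than 1.5-fold in 3 of them. At day 10 it had 1302 CPM in C1qa-gated, 807 in Cd209a-gated and 917 in ungated cells, against 1693, 993 and 1169 CPM at day 3. In Ly6c2-gated cells it had 722 CPM at day 10 against 1084 CPM at day 3, a ratio of 0.666 (0.606 to 0.732) that stands at the limit and passed it in 5 of 12 alternative settings. Over all cells the ratio was nearer to 1, at 0.890 (0.868 to 0.913), than in any of these gates. C1qa-gated cells had the highest Lgals1 level of the 4 gates on days 3 and 10. Their share was larger at day 10, as given above. With each of these gates weighing the same on both days, the ratio was 0.759. The part of the share in the ratio over all cells was not tested beyond this.

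Lgals3 did not share one direction across the gates. In ungated cells of day 10 it had 3967 CPM, against 2765 CPM on day 3, a ratio of 1.43 (1.40 to 1.47), with 3545 CPM on day 6 between them. The monocyte markers of the ungated cells were lower at day 10, as given above, and their part in this ratio was not tested. At day 10 it had 3101 CPM in C1qa-gated, 1434 in Cd209a-gated and 2989 in Ly6c2-gated cells, against 2905, 1648 and 2878 CPM at day 3. The ratios were 1.07 (1.02 to 1.12), 0.870 (0.828 to 0.915) and 1.04 (0.990 to 1.09) in these gates. None of these passed 1.5-fold, and in Ly6c2-gated cells the sign turned under both other scalings.

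Counted over the 5 genes, 3 were lower by 1.5-fold or more at day 10 than at day 3 in C1qa-gated cells (14.1% of all genes), 3 in Cd209a-gated cells (10.6%), 3 in ungated cells (9.84%) and 4 in Ly6c2-gated cells (19.4%). In each gate the 3 were Lgals8, Lgals9 and Lgals3bp, and Lgals1 was the addition in Ly6c2-gated cells. The steps differed between gates. At day 6 against day 3, no gene was lower in C1qa-gated cells (10.8% of all genes), 4 were lower in Cd209a-gated cells (9.1%) and 2, Lgals8 and Lgals9, in ungated cells (9.08%). At day 10 against day 6, Lgals9 and Lgals3bp were lower in C1qa-gated cells (12.9%) and in ungated cells (11.1%), where Lgals8 was 1.54-fold higher (7.77% of all genes were higher), and none was lower in Cd209a-gated cells (14.2%).

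**Figure D2:**
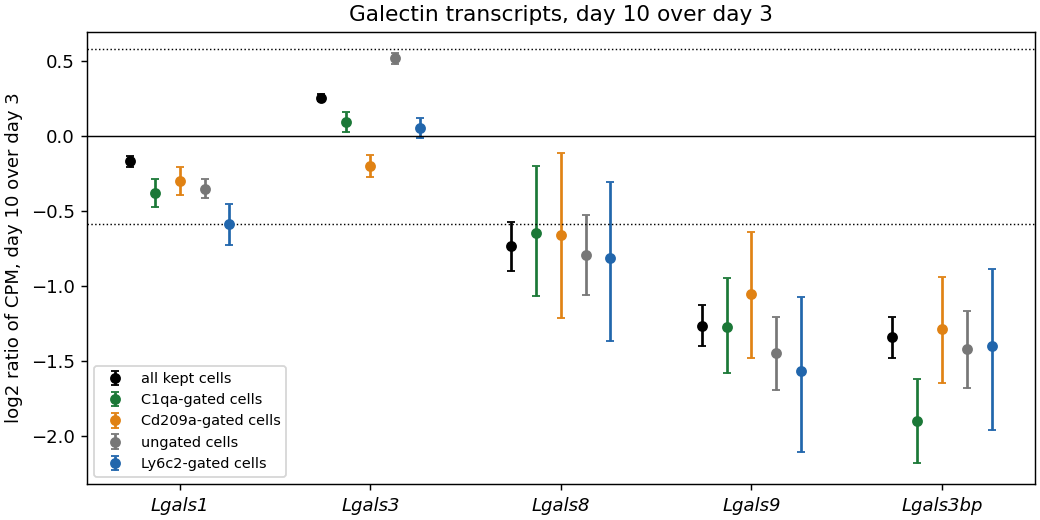
Log2 ratio of CPM at day 10 over day 3 (y axis) for each gene (x axis), over all kept cells and in each gate. Bars are exact conditional binomial 95% intervals for counting error only, the solid line marks no difference and the dotted lines mark 1.5-fold; Lgals8, Lgals9 and Lgals3bp lie below the lower dotted line in every gate, and Lgals3 lies on both sides of 0.

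Within a day, the gates themselves differed, and the Cd209a gate held lower galectin levels than the C1qa gate. Against C1qa-gated cells of the same day, all 5 genes were lower by 1.5-fold or more in Cd209a-gated cells on day 3 (28.0% of all genes), all 5 on day 6 (31.2%), and all but Lgals3bp on day 10 (32.9%). Lgals3 had 1648, 1421 and 1434 CPM in Cd209a-gated cells on days 3, 6 and 10, against 2905, 3323 and 3101 CPM in C1qa-gated cells. Lgals8 had 36.8, 23.8 and 23.3 CPM in Cd209a-gated cells, against 82.7, 58.3 and 53.0 CPM in C1qa-gated cells. Cd209a-gated cells were also the deepest, with a median of 16079 UMIs on day 3 against 8388 in C1qa-gated cells, and the part of depth in these ratios was not tested.

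Against Ly6c2-gated cells, Cd209a-gated cells were lower for Lgals3, Lgals8 and Lgals9 on day 3 (3 of 5 genes, 21.8% of all genes) and for Lgals3 and Lgals8 on day 10 (2 of 5, 17.5%). Lgals3 was 1648 CPM in Cd209a-gated and 2878 CPM in Ly6c2-gated cells on day 3, and 1434 CPM in Cd209a-gated and 2989 CPM in Ly6c2-gated cells on day 10. Lgals1 differed less, with ratios of 0.916 (0.865 to 0.970) on day 3 and 1.12 (1.01 to 1.24) on day 10. Lgals3bp ratios were 0.908 (0.764 to 1.08) on day 3 and 0.983 on day 10, with intervals that include 1.

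Between C1qa-gated and Ly6c2-gated cells, Lgals1 was the gene past 1.5-fold on both days. It had 1693 CPM in C1qa-gated and 1084 CPM in Ly6c2-gated cells on day 3 (1.56-fold, 1.46 to 1.67), and 1302 CPM in C1qa-gated and 722 CPM in Ly6c2-gated cells on day 10 (1.80-fold, 1.65 to 1.98). Lgals3bp had 235 CPM in C1qa-gated and 124 CPM in Ly6c2-gated cells on day 3 (1.89-fold, 1.56 to 2.28), and 62.8 CPM in C1qa-gated and 47.0 CPM in Ly6c2-gated cells on day 10 (1.34-fold, 0.931 to 1.97). Thus 2 of 5 genes were higher by 1.5-fold on day 3 (18.9% of all genes) and 1 of 5 on day 10 (30.7%). The Lgals1 difference on day 3 fell under 1.5-fold in 5 of 12 alternative settings, other scalings among them. Lgals3 was level between these gates, with ratios of 1.01 (0.961 to 1.06) on day 3 and 1.04 (0.991 to 1.09) on day 10. Double-gated cells of day 3 had the highest Lgals1 (1834 CPM), Lgals9 (197 CPM) and Lgals3bp (249 CPM) of all 12 sums, with intervals that overlapped those of day 3 C1qa-gated cells.

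Ordered over the 12 sums, Lgals3bp spanned 5.74-fold and Lgals9 5.60-fold between the highest and the lowest, Lgals8 3.76-fold, Lgals1 3.19-fold and Lgals3 2.79-fold. The lowest Lgals3bp sum was that of day 10 ungated cells, the lowest Lgals8 and Lgals9 sums were those of day 10 Cd209a-gated cells, and the lowest Lgals1 and Lgals3 sums were those of day 6 Cd209a-gated cells. Intervals of neighbours in the order overlapped for 10 of 11 pairs in Lgals8 and in Lgals9, 9 of 11 in Lgals3bp and 5 of 11 in Lgals1 and in Lgals3, so that single steps of the 3 scarcer genes are mostly within counting error.

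The balance of the abundant pair also shifted. Lgals3 had 2.20 UMIs for each Lgals1 UMI on day 3, 2.96 on day 6 and 2.95 on day 10 over all kept cells. In ungated cells the ratio was 2.36 (2.28 to 2.45), 4.11 (3.93 to 4.31) and 4.33 (4.17 to 4.48), in C1qa-gated cells 1.72, 2.41 and 2.38, and in Cd209a-gated cells 1.66, 2.47 and 1.78. Ly6c2-gated cells had 4.14 on day 10 and 2.66 on day 3. The ratio compares 2 genes by captured 3′ ends within 1 sum and does not depend on the scaling between days.

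Cells of 1 gate differed far more from each other in Lgals3 in some gates than in others. In ungated cells of day 10, the 10th and 90th percentiles of Lgals3 were 4.10 and 81.6 UMIs per 10000 (19.9-fold apart), with a median of 24.6. In Ly6c2-gated cells of day 10, they were 19.1 and 40.4 (2.12-fold apart), with a median of 27.7. The ungated cells were shallower, with a median of 6265 UMIs against 10125, and the part of depth in the wider range was not tested. On day 3 the ungated cells ranged over 7.92 to 47.9 UMIs per 10000 and on day 6 over 3.53 to 69.8.

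**Figure D3:**
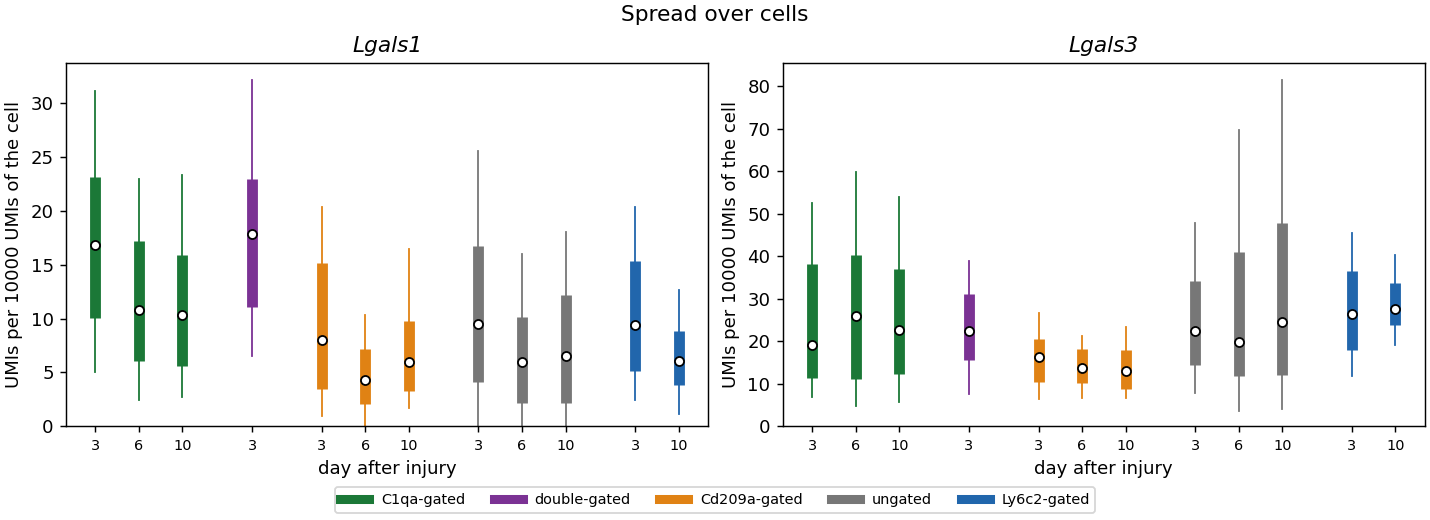
Lgals1 and Lgals3 per cell, in UMIs per 10000 UMIs of the cell (y axis, linear), by gate and day after injury (x axis). White dots are medians, thick bars run between the quartiles and thin lines between the 10th and 90th percentiles of cells. The thin line of Lgals3 in ungated cells of day 10 spans 4.10 to 81.6, against 19.1 to 40.4 in Ly6c2-gated cells of that day.

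Because Lgals9 and Lgals3bp are known targets of interferon, a list of 20 type I interferon-response genes was read beside them. All 20 were at least 1.5-fold lower at day 10 than at day 3 over all kept cells, with a median log2 ratio of -2.46 against 0.17 for all genes. Isg15, a ubiquitin-like modifier, had 77.5 CPM on day 10 against 807 CPM on day 3 (10.4-fold lower). Oasl1, of the oligoadenylate synthetase family, had 8.83 CPM on day 10 against 84.5 on day 3 (9.57-fold lower), and Oas3, of the same family, had 11.6 against 101 CPM on these days (8.76-fold lower). The list summed to 3817, 1497 and 662 CPM on days 3, 6 and 10. Between day 10 and day 3 the sum was 8.69-fold lower in C1qa-gated cells (499 CPM at day 10, 4340 at day 3) and 2.65-fold lower in Ly6c2-gated cells (1691 CPM at day 10, 4473 at day 3). It was 5.64-fold lower in ungated and 2.85-fold lower in Cd209a-gated cells. Lgals3bp was also most lowered in C1qa-gated cells (3.74-fold). Lgals9 was 2.97-fold lower in Ly6c2-gated and 2.41-fold lower in C1qa-gated cells, with overlapping intervals.

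Over the 12 day-by-gate sums, the correlation of log2(CPM + 10) with that of the interferon sum was 0.86 for Lgals9, 0.83 for Lgals3bp, 0.73 for Lgals8, 0.56 for Lgals1 and 0.07 for Lgals3 (Pearson's r, as a description). Lgals9 and Lgals3bp had an r of 0.91 with each other, and Lgals1 and Lgals3 one of 0.38. Sums of 1 day come from 1 library, so these points are not independent, and the days make up much of the range. Day 10 Ly6c2-gated cells departed from the order of the interferon sums. Their interferon sum of 1691 CPM was close to that of day 6 C1qa-gated cells (1713 CPM), yet they had 49.9 CPM of Lgals9 against 112 and 47.0 CPM of Lgals3bp against 169. Within day 10, all 19 interferon genes compared were at least 1.5-fold lower in C1qa-gated than in Ly6c2-gated cells. Lgals9 and Lgals3bp were not lower there, with ratios of 1.39 (0.980 to 2.03) and 1.34 (0.931 to 1.97).

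**Figure D4:**
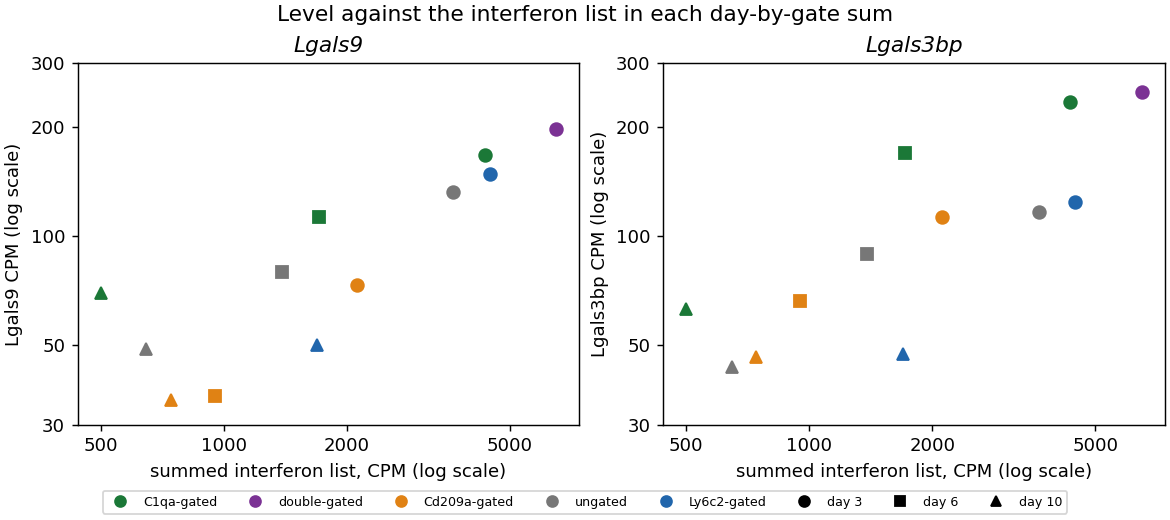
Lgals9 and Lgals3bp level in CPM (y axes, log scale) against the summed CPM of 20 interferon-response genes (x axes, log scale) in each day-by-gate sum. Colour gives the gate and shape the day; day 3 sums lie towards the upper right and day 10 sums towards the lower left, with the day 10 Ly6c2-gated sum at 1691 CPM on the x axes below the day 6 C1qa-gated sum.

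To compare cells of the same day and gate, cells were ranked by the share of their UMIs from the 20 genes and cut into 3 equal parts, in the 11 gate-days with at least 60 cells. This division was added after the data had been seen, and the cut is a point on a continuous range. In Ly6c2-gated cells of day 3, where 45 of 291 cells lay within 10% of a cut, the interferon list was at 1017, 3571 and 9950 CPM in the low, middle and high part. Lgals3bp had 28.9, 139 and 231 CPM in these parts (35, 144 and 216 UMIs), and Lgals9 had 84.9, 146 and 232 CPM. Lgals8 had 66.8, 78.3 and 125 CPM, so that its difference was mostly between the middle and the high part. Median depth was 12853, 10365 and 9399 UMIs in the low, middle and high part.

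Across the 11 gate-days, Lgals3bp was past 1.5-fold in the high over the low part in 11, with ratios between 1.75 in day 10 Cd209a-gated cells and 8.0 in day 3 Ly6c2-gated cells. Lgals9 was so in 10, with ratios of 1.19 to 6.09, and the exception was the ungated cells of day 10. Median depth in these cells was 3981, 8071.5 and 6608 UMIs in the low, middle and high part. Without cells under 5000 UMIs, their Lgals9 ratio was 1.91 (1.22 to 3.04). The highest Lgals9 ratio rests on 21 UMIs in the high and 4 in the low part of day 10 Ly6c2-gated cells. Lgals8 was so in 8, with ratios of 0.87 to 7.33 (2.17 to 38.5, on 3 UMIs in the low part), but its interval lay above 1 in 4 of the 11 only. Of the genes outside the list, 17.5%, 10.4%, 11.8% and 17.5% passed 1.5-fold on day 3 in C1qa-gated, Cd209a-gated, ungated and Ly6c2-gated cells, 8.81%, 15.1% and 12.2% in the first 3 of these on day 6, and 15.0%, 11.3%, 12.0% and 16.0% in all 4 on day 10. The 2 abundant genes passed 1.5-fold less often. Lgals1 passed it in 1 gate-day, the Ly6c2-gated cells of day 3 (1.82, 1.67 to 1.99), and had ratios of 0.82 to 1.82. Its interval lay above 1 in 6 of the 11 gate-days and below 1 in 2.

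Lgals3 also passed in 1, the C1qa-gated cells of day 3, with 3797 CPM in the high and 1922 CPM in the low part (1.98, 1.76 to 2.23). In C1qa-gated cells of day 10 it went the other way, with 2239 CPM in the high and 3934 CPM in the low part (0.569, 0.546 to 0.593). The difference between these days was not tested. On day 10 Lgals3 was also lower in the high part of Ly6c2-gated cells (0.724, 0.648 to 0.807). It was higher in that of Cd209a-gated (1.25, 1.14 to 1.36) and ungated cells (1.12, 1.08 to 1.17). Without cells under 5000 UMIs the ungated ratio was 0.876 (0.842 to 0.912). Over the 11 gate-days the Lgals3 interval lay above 1 in 5 and below 1 in 2. Without cells under 5000 UMIs, which leaves 10 gate-days, Lgals9 and Lgals3bp each passed in 10 of 10, Lgals8 in 7, Lgals1 in 1 and Lgals3 in 0, since the day 3 C1qa gate then held under 60 such cells and dropped out.

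**Figure D5:**
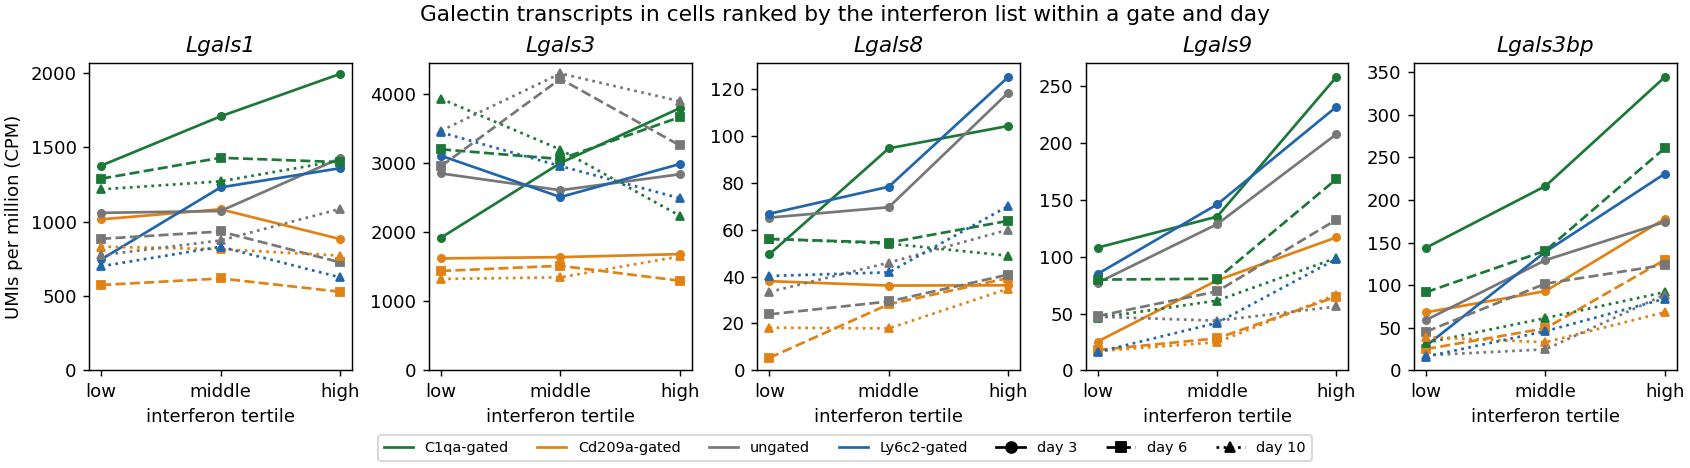
Levels in CPM (y axis, linear, from 0) in cells of the low, middle and high part of the ranking by interferon-list share (x axis), ranked within each gate and day. Colour gives the gate, and marker and line style the day; Lgals3bp is higher in the high than in the low part in all 11 gate-days, while the Lgals3 lines of C1qa-gated cells rise on day 3 and descend on day 10.

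The genes whose levels over the 12 sums most resembled each galectin were read from 2575 genes with a mean of at least 50 CPM, by Pearson's r of log2(CPM + 10). For Lgals3 they were Fn1 (0.98), which encodes fibronectin, Pgd (0.96), Txn1 (0.96), Adam8 (0.96) and Grina (0.96). Fn1 had 1032, 1445 and 1969 CPM on days 3, 6 and 10 over all kept cells. For Lgals9 they were Hspa5 (0.97), an endoplasmic reticulum chaperone, Tmem33 (0.97), Tapbp (0.96), the tapasin of antigen loading, Rsrp1 (0.95) and Oasl1 (0.95). For Lgals3bp they were Dck (0.95), Gnpda1 (0.93), Tapbp (0.92), Capns1 (0.90) and Oasl1 (0.90), so that Tapbp and Oasl1, the second also a member of the interferon list, stood in both lists.

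For Lgals8 the most alike were Tpst2 (0.98), Vmp1 (0.97), an autophagy protein, Rnpep (0.96), Rab5c (0.96) and Arhgef10l (0.95). For Lgals1 they were Pdia4 (0.95), Snx3 (0.94), Ik (0.93), Tmem106a (0.93) and Snx6 (0.92). With 12 points that share 3 libraries, such values describe the sums and carry no test.

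Other galectin genes were nearly silent. Lgals4 had 17, 7 and 15 UMIs in all kept cells of days 3, 6 and 10, Lgalsl 1, 9 and 11, Lgals2 1, 1 and 6, and Lgals7 1, 0 and 4. Lgals12 and Grifin had 0 UMIs on each day, with upper limits of the exact Poisson 95% interval of 0.378, 0.508 and 0.304 CPM on days 3, 6 and 10. Together with Lgals4, the 4 galectin genes above make up the 5 of 10 counted family genes compared between day 10 and day 3. Of these 5, 2 were lower and 0 higher by 1.5-fold, against 8.94% lower and 24.6% higher among all genes. Their median log2 ratio of -0.49 is that of Lgals4 itself. Its ratio of 0.711 (0.330 to 1.51) rests on 15 UMIs on day 10 and 17 on day 3.

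Genes related to galectin function were read from 3 lists, at day 10 over day 3 over all kept cells. Of 25 measured surface and matrix partners of galectins, 10 were higher and 3 lower by 1.5-fold (median log2 ratio 0.37). In C1qa-gated cells alone, 6 of 23 were higher and 3 lower, against 20.9% higher and 14.1% lower among all genes. The median log2 ratio there was -0.007, against 0.06 for all genes. Pdpn, the mucin-like podoplanin, had 369 CPM on day 10 and 136 CPM on day 3 (2.71-fold higher), Trem2, a lipid receptor of macrophages, had 299 CPM on day 10 and 116 on day 3 (2.58-fold higher), and Itgb1, an integrin chain, had 300 CPM on day 10 and 145 on day 3 (2.07-fold higher). Cd274, which encodes PD-L1, had 46.6 CPM on day 10 and 70.2 on day 3 (1.51-fold lower). In C1qa-gated cells Pdpn was 1.83-fold, Trem2 1.52-fold and Itgb1 2.09-fold higher, and Cd274 was 1.73-fold lower. Of 21 enzymes that branch or cap glycans, 4 were higher and 2 lower (median 0.24), the lower ones being St3gal4 with 37.8 CPM on day 10 against 77.7 on day 3 (2.05-fold) and St3gal1 with 46.1 against 71.2 CPM (1.55-fold), both of which add sialic acid. Of 21 genes of the response to damaged lysosomes, 2 were higher and 1 lower (median 0.13). Sqstm1, an autophagy receptor, had 223 CPM on day 10 and 108 on day 3 (2.07-fold higher), and Chmp4b, of the membrane repair complex ESCRT-III, had 263 CPM on day 10 and 484 on day 3 (1.84-fold lower). The shares over all kept cells compare with 24.6% higher and 8.94% lower among all genes. The mix of gates differed between these days, as given above, and its part in these ratios was not tested.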

How the data were processed

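Per the labels' protocols, wound cells were obtained by enzymatic digestion, loaded on the 10x Chromium platform at a viability of over 70% and sequenced on a HiSeq instrument. The deposited values are raw UMI counts per gene and barcode, made with Cell Ranger 3.0.2 on mm10, per the submitters' processing notes. Which annotation release was counted is not given in the sources. Libraries held 1472, 1196 and 2209 barcodes and 11199361, 9273960 and 13972817 UMIs on days 3, 6 and 10, of which 9757866, 7263942 and 12115163 UMIs were in kept cells. Coordinates came from GENCODE vM21, matched by Ensembl identifier.

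From the counts, sums per day and gate were formed and scaled to CPM (Python 3.11.15, scipy 1.17.1). Levels carry exact Poisson 95% intervals and ratios exact conditional binomial ones. Since UMIs of 1 cell are not independent of its state, both cover counting error only. Genes with under 20 UMIs over a pair of sums were not compared, a sum with under 3 UMIs was set to 3, and a sum needed at least 20 cells. No test was run, as each day is 1 library. The ratio and interval calculation was tested on simulated data. Doublets were scored with Scrublet through scanpy 1.11.5 (12, 6 and 5 cells) and kept. TMM factors came from edgeR 4.0.16.

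The members, the gene lists and the markers were chosen with earlier results of these data known. All 5 members are named; of each list, up to 3 genes in each direction with the largest ratio of day 10 over day 3 at 1.5-fold or more and at least 50 CPM on 1 of these days; and for each member the 5 genes most alike, leaving out members, gate genes, mitochondrially encoded and ribosomal protein genes. St6gal1 is named beside these, though it had under 50 CPM on both days. Comparisons of ungated cells, of Cd209a-gated with C1qa-gated cells and between days 6 and 3 or 10 and 6 inside gates, and the division by interferon share, were added after seeing the data.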

Additional observations from a re-analysis of the deposited data

Results flagged for a closer look

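The difference in Lgals3 between day 10 and day 3 had opposite signs in different gates. The log2 ratio of CPM was 0.094 in C1qa-gated cells and 0.52 in ungated cells, against -0.20 in Cd209a-gated cells. Each interval lies on 1 side of 0 for counting error, and each gate has 1 library a day. The difference between the gates was not tested.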

How the results depend on the processing

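The count of 3 genes lower at day 10 than at day 3 over all kept cells was 2 at 2-fold, where Lgals8 drops out, and 3 under each of the other 11 alternatives run. Of 139 recomputed counts, 120 stayed within 1.5 times their main value, and none changed direction. For day 6 over day 3 over all kept cells (2 genes), the count was 1 with a 5% mitochondrial limit, 1 without the cells called by Scrublet, 1 with each cell weighing the same and 0 at 2-fold. For day 10 over day 6 (2 genes) it was 1 under TMM scaling, median-of-ratios scaling, equal weights of cells, equal weights of gates and 2-fold. In Ly6c2-gated cells, day 10 over day 3 (4 genes), it was 2 at 2-fold. For C1qa-gated over Ly6c2-gated cells on day 3 (2 genes), it was 1 with no filter on cells, with gates at 1 UMI, with gates at 5 UMIs, under TMM and under median-of-ratios scaling, and 0 at 2-fold. On day 10 (1 gene) it was 0 at 2-fold. For Cd209a-gated over Ly6c2-gated cells on day 10 (2 genes), it was 1 with at least 100 UMIs. The gate-days with Lgals3 past 1.5-fold in interferon-high cells went to 0 in the setting without cells under 5000 UMIs, chosen after seeing the data, which also drops that gate-day. The cause of the other moves was not tested.

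TMM scaling shifted all log2 ratios by -0.15 for day 10 over day 3, by -0.25 for day 6 over day 3 and by 0.09 for day 10 over day 6. Of 570 recomputed ratios of single genes, 542 stayed on the same side of 1; Lgals3 at day 6 over day 3 had a log2 ratio of 0.19 and of -0.10 under median-of-ratios scaling. With gates at 1 UMI, the Lgals8 log2 ratio of day 10 over day 3 in C1qa-gated cells was -0.23, against -0.64. No paired analysis was possible because each day is 1 library. For the same reason no library could be left out. Double-gated comparisons between days and comparisons with day 6 Ly6c2-gated cells had under 20 cells in a sum and gave no value. Counts of 33 to 35 UMIs for the scarcer genes in day 10 Ly6c2-gated cells limit the precision there.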
